A study of Danio rerio with 9 samples.

Results

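Single primordial germ cells (PGCs) of the zebrafish at the 3-somite stage (11 hours post fertilization, hpf) were set against PGCs at the prim-5 stage (24 hpf). The members of this comparison are all genes that reached 1 FPKM (fragments per kilobase of exon, scaled to a fixed number of mapped fragments) in 3 or more of the 6 cells, and these were 6947 of 32266 annotated genes. Over the whole series of 9 cells, with the same threshold, 9329 genes passed. The fish were of the AB strain and carried a kop-egfp-nanos3-3ʹUTR transgene, which labels PGCs with green fluorescence, and single fluorescent cells were drawn up in a capillary. At 11 hpf the whole embryo was dissociated. At 24 hpf the embryo was anaesthetized with tricaine, its head, tail and yolk were removed, and the trunk was minced before dissociation. The series also holds 3 cells at 6 hpf, which are given here beside a few values only. All cells of a stage came from 1 embryo, so a stage is 1 sample. No difference between the stages was tested, and age, embryo, anaesthesia and dissection cannot be told apart. The GEO labels name gonad as the tissue of every cell.

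PGCs are the founders of eggs and sperm. In zebrafish they inherit germ plasm, a maternal store of RNA and protein rich in RNA-binding proteins, and they migrate through the embryo toward the future gonad. At 11 hpf the cells are migrating as loose clusters, and by 24 hpf they have gathered at the gonad site. Many of their transcripts are laid down in the egg, and nanos3, dnd1 and tdrd7a carry 3ʹ sequences that protect them from decay in PGCs. The machinery compared here includes ribosomes, which are built in the nucleolus before they act in the cytoplasm, the respiratory chain of the mitochondria, and the proteasome, which degrades ubiquitin-tagged proteins.

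The cells are named 11_1 to 11_3 and 24_1 to 24_3, and values are listed in that order. The FPKM of the 6 cells summed to between 548917 and 613048. No read counts per gene were used, so the number of reads behind a single value is unknown. The paper lists read pairs per library after quality control, and of the 6 cells 11_1 had the fewest and 24_3 the most. Among the members, 5387, 5556 and 5582 genes reached an FPKM of 1 in the cells at 11 hpf, and 4341, 5379 and 5172 did so at 24 hpf. Cell 24_1 thus held the fewest genes, with 2366 members listed at 0 against 1141 to 1617 in the other 5 cells. Of 12 germ cell markers, 10 were at an FPKM of at least 1 in each cell at 11 hpf, and 10, 8 and 11 were in 24_1, 24_2 and 24_3. Marker genes of other tissues were also read. The summed FPKM of 22 skeletal muscle genes was 0.851, 52.8 and 9.03 at 11 hpf against 634, 2663 and 50.7 at 24 hpf. An FPKM of 1 was reached by 0, 3 and 1 of these genes at 11 hpf and by 8, 10 and 4 at 24 hpf. In 24_2 the sum came mostly from actc1b, a sarcomeric actin, at 1554 FPKM, while myod1, myog and atp2a1 were listed at 0 in every cell. Transcripts of the yolk syncytial layer, among them apoa2 and afp4, summed to 1646 FPKM in 24_2 but to 0.231 and 0 in 24_1 and 24_3, against 107 to 391 FPKM at 11 hpf. The sums at 11 hpf came mostly from apoeb, at 263, 213 and 107 FPKM. Among erythroid genes only the globin gene hbae1.3 was above 0 in the 6 cells, at 13.96 FPKM in 24_2. Of 10 neural markers, 0, 0 and 1 reached an FPKM of 1 in the cells of 11 hpf against 1, 2 and 1 in those of 24 hpf, with sums of 0, 0 and 2.66 FPKM against 107.8, 172 and 60.9. The later sums came mostly from the radial glia gene fabp7a, at 107.8, 143.7 and 60.9 FPKM, while gfap, sox2, neurod1, ncam1a, gng3 and mab21l2 were listed at 0 in every cell. The sum of endoderm and gut markers was also higher at 24 hpf, at 0, 1.19 and 0 FPKM against 46.9, 159 and 19.1. It was fabp2 alone in 11_2, 24_1 and 24_2 and gata6 alone in 24_3. The genes foxa2, foxa3, sox17, sox32, gata5 and hnf1ba were listed at 0 in all 6 cells. Mesoderm and pronephros markers went the other way. They summed to 327, 216 and 119 FPKM at 11 hpf, mostly from tbx16, against 6.37, 28.2 and 0.0466 at 24 hpf. So did the sum of notochord markers, at 26.2, 96.4 and 23.6 FPKM against 0, 15.5 and 0, but no single marker accounted for it. It was ta alone in 11_1 and 11_2, loxl5b alone in 11_3 and shha alone in 24_2. The genes col2a1a, col9a1a, col8a1a, ntd5 and noto were listed at 0 in all 6 cells. Epidermal markers overlapped, at 283, 47.1 and 54.7 FPKM against 213, 74.1 and 129. The part of these transcripts in the differences below was not tested, and the main counts are therefore also given without 24_1, without 24_2 and, as it was the cell of its stage most like the later ones, without 11_3.

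A gene was compared through the difference of log2(stage mean FPKM + 1), 24 hpf minus 11 hpf, and through its 6 values. The spread beside a difference combines the SDs of log2(FPKM + 1) over the 3 cells of each stage, as the square root of the sum of their squares. For a list of genes it is the same quantity for the median of the list. "Without overlap" means that every cell of a stage lay above every cell of the other. A member that is listed at 0 in some cells could pass the threshold only through the others, so genes above 0 in all 6 cells are described apart. They numbered 2305, or 33.2% of the members, and 376 of them (16.3%) were higher at 24 hpf without overlap while 249 (10.8%) were lower. The other 1680 overlapped. The difference was larger than its spread for 341 of the 376 higher genes, for 210 of the 249 lower genes, and for 162 of those that overlapped. The median log2 difference was 1.55 over the higher genes and -1.76 over the lower ones, where the direction is set by the choice of genes. At least 2-fold differences were seen for 311 of the higher and 218 of the lower genes.

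**Figure D1:**
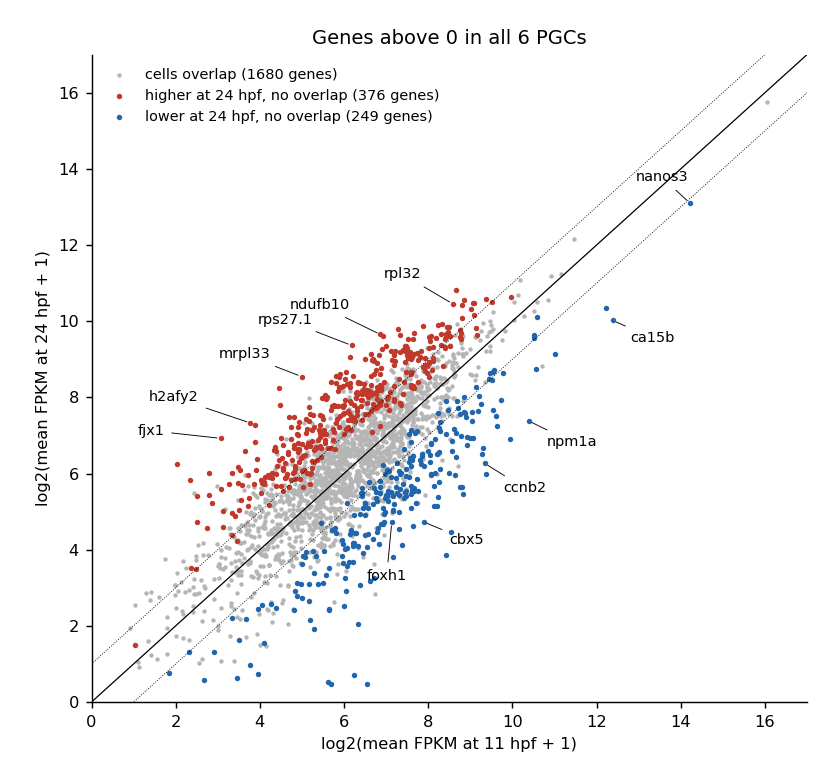
Mean FPKM + 1 at 24 hpf (vertical, log2 scale) against that at 11 hpf (horizontal, log2 scale) for the 2305 genes above 0 in all 6 PGCs, with 1 point per gene, the line of equal means, and dotted lines at a log2 difference of 1 and -1. The 376 higher genes include many at middle to high levels, and the 249 lower genes include nanos3, dnd1 and ca15b far to the right.

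Over all 6947 members, 1762 (25.4%) were at least 2-fold higher at 24 hpf and 1909 (27.5%) at least 2-fold lower, with a median log2 difference of -0.02 (spread 0.35). Over the genes above 0 in all 6 cells the median was 0.23 (spread 0.13), that is, slightly toward 24 hpf. This offset depends on the scale of the cells. With median-of-ratios factors, which set the typical gene equal between cells, it was 0.03, and the counts without overlap became 300 higher and 306 lower, so that 49.5% in place of 60.2% were higher. With the same total per cell (TPM) they were 343 and 284. On the same 2305 genes, leaving out 24_1 gave 527 higher and 329 lower genes, leaving out 24_2 gave 520 and 347, and leaving out 11_3 gave 568 and 365, where 5 cells in place of 6 make overlap rarer. Between pairs of cells, Pearson's r of log2(FPKM + 1) over these genes was 0.661 to 0.675 within 11 hpf, 0.677 to 0.727 within 24 hpf and 0.474 to 0.673 between the stages. The high values between the stages belonged to 11_3, at 0.594, 0.659 and 0.673 with 24_1, 24_2 and 24_3, while those of 11_1 and 11_2 were at most 0.561. Cell 11_3 was thus about as like 24_3 as the other cells of its own stage, at 0.664 and 0.661. These values are across genes, which are not independent, and they describe the cells only.

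The genes were read through 31 lists of functional groups. Against the 16.3% and 10.8% of all genes above 0 in all 6 cells, the share that was higher without overlap was 74.6% for cytosolic ribosomal proteins, 51.4% for the proteasome and 50.9% for the nuclear genes of the respiratory chain, with 0 genes lower in these 3 lists. The share that was lower was 78.6% for germline genes, 30.8% for histones and linker histones, 27.8% for cyclins and 25% for kinetochore and spindle genes. It was 25% for DNA replication genes as well, of which 15% were higher. The histone share counts near-identical copies of HIST1H2AL as separate genes. Translation factors and the spliceosome lay close to the shares of all genes, and these are described mainly by their single members. Cells are not replicates of a stage, and the genes of a list share the same 6 libraries, so these shares carry no test.

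**Figure D2:**
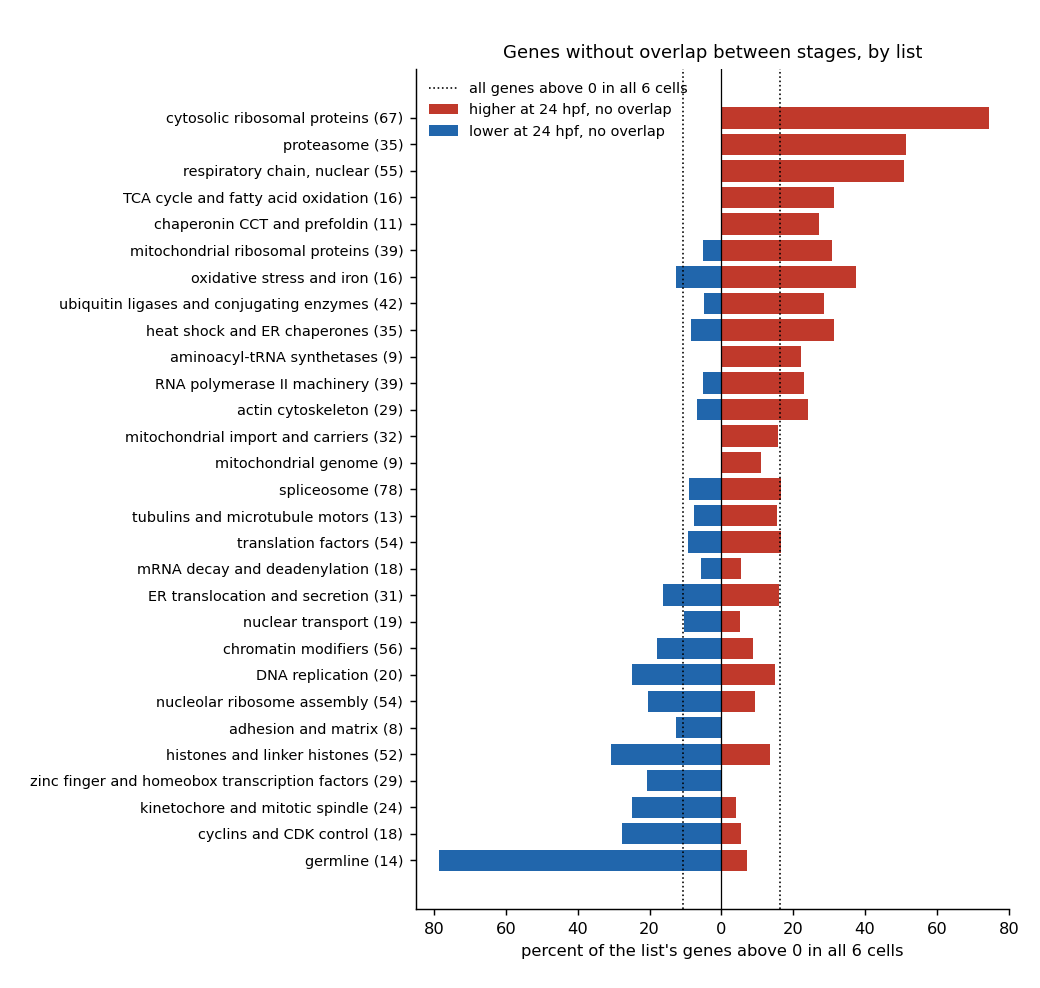
Percent of the genes above 0 in all 6 cells that were higher (red, to the right) or lower (blue, to the left) at 24 hpf without overlap, for each list with at least 8 such genes, whose number is in brackets. Dotted lines mark 16.3% higher and 10.8% lower over all 2305 genes, and the cytosolic ribosomal proteins and the germline genes lie at the ends.

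Cytosolic ribosomal proteins form the ribosome together with ribosomal RNA. Of 86 genes of this list among the members, 67 were above 0 in all 6 cells, 50 were higher at 24 hpf without overlap and 0 were lower. The median log2 difference was 1.67 (spread 0.54) beside 0.23 over all such genes. With median-of-ratios factors 44 were higher, without 24_1 the count was 50 and without 24_2 it was 53. As a share of a cell's total FPKM, the list took 1.53%, 1.78% and 2.46% in the cells of 11 hpf, against 6.34%, 5.31% and 4.35% in those of 24 hpf and 1.64% to 1.74% in those of 6 hpf. All cells at 24 hpf thus lay above all earlier cells, and 24_1 was highest.

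The large subunit gene rpl35a had the largest difference of the listed genes without overlap, with 5.83, 14.99 and 13.9 FPKM at 11 hpf and 137, 128 and 18.5 at 24 hpf (log2 difference 2.93, spread 1.74). Its lowest value at 24 hpf, in 24_3, was only just above 11_2, and with median-of-ratios factors its cells overlapped. For rps4x the values were 49.7, 56.6 and 58.4 FPKM at 11 hpf and 524, 335 and 268 at 24 hpf, so that the stages lay far apart (log2 difference 2.75, spread 0.51). The most abundant ribosomal gene without overlap was RPL37A (ENSDARG00000098458), with 258, 271 and 675 FPKM at 11 hpf and 2002, 2108 and 1292 at 24 hpf (log2 difference 2.16, spread 0.87). Further genes with differences above 2.5 were rpl24 with 11.4, 17.3 and 1.67 FPKM at 11 hpf and 98.8, 69.2 and 46.97 at 24 hpf and rpl38 with 19.1, 46.3 and 15.4 FPKM at 11 hpf and 185, 216 and 133 at 24 hpf. In rpl24 and rpl38 every cell at 24 hpf was above every cell at 11 hpf by a clear margin. Outside the symbol pattern that defined the list, and so not counted in it, rps27.1 (ENSDARG00000023298), also a ribosomal protein gene, had 66.6, 103 and 45.002 FPKM at 11 hpf and 864, 659 and 451 at 24 hpf (log2 difference 3.18, spread 0.75). Where a gene has near-identical copies, their shared reads cannot be assigned with certainty.

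Nucleolar genes that assemble ribosomes did not share the shift of the ribosomal proteins. Of 54 such genes above 0 in all 6 cells, 11 were lower and 5 higher without overlap, and the median log2 difference was 0.30 (spread 0.37), close to that of all genes. Both counts rose when 24_1, 24_2 or 11_3 was left out, as did those over all genes. Without 24_2 there were 14 lower and 14 higher genes, without 11_3 12 and 13, and without 24_1 12 and 8. The summed FPKM of cytosolic ribosomal proteins divided by that of nucleolar genes was 0.816, 0.904 and 1.01 at 11 hpf against 4.28, 3.64 and 2.15 at 24 hpf, with 1.02 to 1.21 at 6 hpf. Among the lower genes, npm1a, which encodes the nucleolar chaperone nucleophosmin, had 1115, 1378 and 1511 FPKM at 11 hpf and 79.5, 35.8 and 382 at 24 hpf (log2 difference -3.0, spread 1.73). Cell 24_3 was the highest of the later cells, and the stages did not overlap. The gene nop56, a core protein of box C/D particles that guide methylation of ribosomal RNA, stood at 499, 422 and 262 FPKM at 11 hpf and 32.2, 62.6 and 88.01 at 24 hpf (log2 difference -2.67, spread 0.87). For rrp9, which binds the U3 RNA, the values were 137, 86.4 and 52.2 FPKM at 11 hpf and 0.21, 12.5 and 34.8 at 24 hpf, and the difference of -2.47 was smaller than its spread of 2.61. In the other direction, noc4l had 0.0974, 0.167 and 76.3 FPKM at 11 hpf and 245, 105 and 93.3 at 24 hpf, with a difference of 2.49 below its spread of 3.60, and 11_3 was far above the other cells at 11 hpf.

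**Figure D3:**
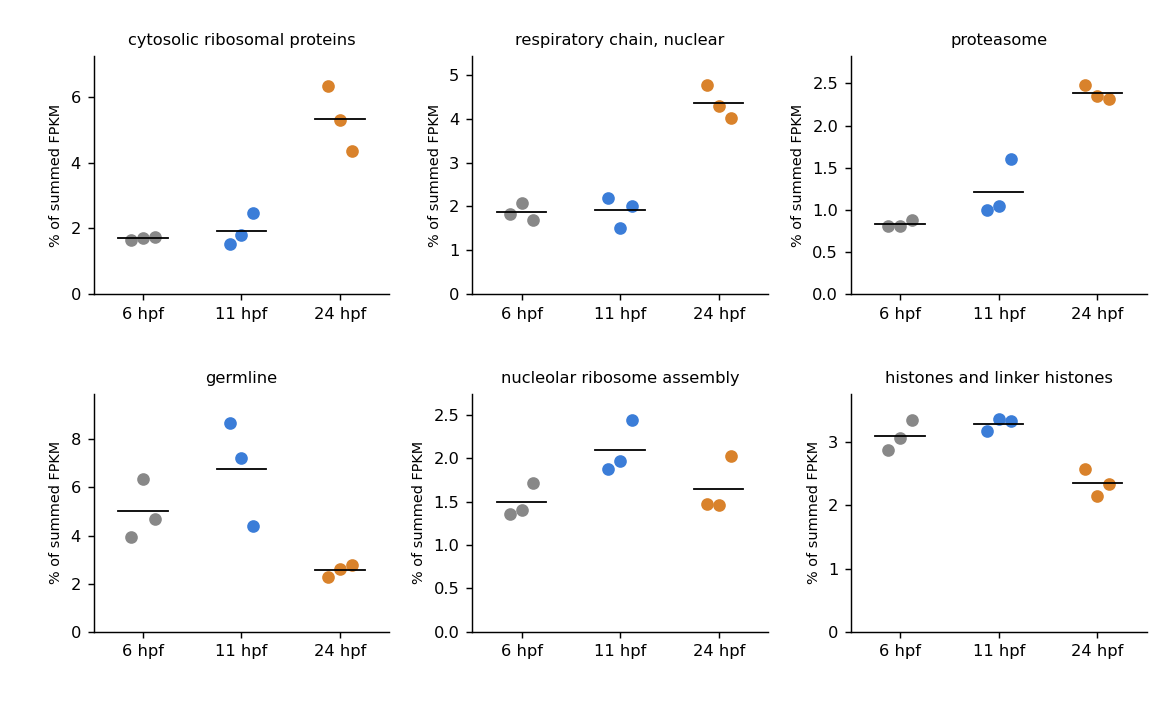
Share of a cell's summed FPKM (vertical, percent, from 0) taken by 6 gene lists at 6, 11 and 24 hpf, with 1 point per PGC and a line at the mean of 3 cells of 1 embryo. Ribosomal protein, respiratory chain and proteasome shares are higher in all 3 cells at 24 hpf than in any earlier cell, and the germline share is lower than in any earlier cell. A large part of the germline share is nanos3, whose values may include reads of the transgene.

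After these values were seen, the proteins of box C/D and H/ACA particles were counted together. Of 7 above 0 in all 6 cells, 5 were lower without overlap, namely nop56, nop58, fbl, dkc1 and rrp9, and 0 were higher. Over all genes above 0 in all 6 cells 10.8% were lower and 16.3% higher, and nop56 and rrp9 had led to this count. The methyltransferase gene fbl (fibrillarin) had 221, 208 and 370.4 FPKM at 11 hpf and 87.9, 42.7 and 58.4 at 24 hpf, and dkc1 (dyskerin, the pseudouridine synthase) had 735, 681 and 949 FPKM at 11 hpf and 146, 81.1 and 227 at 24 hpf. Cells of the stages were well apart in both. The remaining 2, snu13b and gar1, overlapped, with log2 differences of 0.78 and 0.39. The product of snu13b also acts in the spliceosome. Further genes of the nucleolar list that were picked after their values were seen are nop2, sdad1, wdr36 and polr1b, which were higher without overlap with log2 differences of 1.23, 1.84, 0.98 and 0.94. Of these, nop2 methylates ribosomal RNA and polr1b is a subunit of RNA polymerase I.

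Translation factors were mixed, with 9 of 54 higher and 5 lower without overlap (median 0.29, spread 0.32), and 14 higher without 24_1 or without 11_3. The initiation factor gene eif1axb had 238, 209.99 and 175 FPKM at 11 hpf and 41.4, 25.1 and 42.9 at 24 hpf (log2 difference -2.48, spread 0.47), and its stages were clearly apart. EIF1B, with 337, 279.7 and 563 FPKM at 11 hpf and 157, 171 and 102 at 24 hpf, and the helicase gene eif4a2, with 78.2, 180.4 and 223 FPKM at 11 hpf and 43.4, 60.4 and 37.3 at 24 hpf, were lower as well. The repressor of cap-dependent translation eif4ebp1 was abundant and higher, with 301, 189 and 386 FPKM at 11 hpf and 741, 622 and 912 at 24 hpf (log2 difference 1.37, spread 0.59). eif2b1, which encodes a subunit of eIF2B, the exchange factor of initiation factor eIF2, had 2.399, 0.771 and 38.1 FPKM at 11 hpf and 98.8, 54.2 and 183 at 24 hpf (log2 difference 2.94, spread 2.51), and eif2b2 was at 0 in each of 11_1 to 11_3 against 198, 178 and 119.8 FPKM at 24 hpf. Of the other subunits, eif2b5 overlapped, with a log2 difference of -0.59. The genes eif2b3 and eif2b4 were listed at 0 in some cells, with differences of -3.82 and 1.49 and spreads of 3.02 and 4.04. Among aminoacyl-tRNA synthetase genes, which charge tRNAs, 2 of 9 were higher and 0 lower. These were farsb, with 18.1, 0.952 and 8.36 FPKM at 11 hpf and 42.3, 83.9 and 64.8 at 24 hpf, and aimp1, a scaffold of the synthetase complex, with 48.1, 23.04 and 80.5 FPKM at 11 hpf and 566, 180.1 and 274 at 24 hpf.

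Nuclear genes of the respiratory chain, which encode most subunits of the complexes that transfer electrons and make ATP, were higher in 28 of 55 cases and lower in 0. The median log2 difference was 1.34 (spread 0.42). With median-of-ratios factors 22 were higher, and without 24_1 or without 24_2 the count was 32 each time, with 0 and 1 lower. Their share of the summed FPKM was 2.19%, 1.51% and 2.02% at 11 hpf against 4.78%, 4.29% and 4.03% at 24 hpf. The complex I subunit gene ndufa2 had 3.603, 58.3 and 1.17 FPKM at 11 hpf and 601, 207 and 99.4 at 24 hpf (log2 difference 3.78, spread 2.82), with 11_2 far above the other cells of its stage. Another complex I gene, ndufb4, had 8.75, 18.97 and 36.5 FPKM at 11 hpf and 352, 215 and 93.2 at 24 hpf (log2 difference 3.3, spread 1.37). In ndufs4, the values of 36.5, 123 and 50.7 FPKM at 11 hpf and 731, 366 and 501 at 24 hpf left a gap between the stages, and in ndufb10, with 64.3, 155 and 127 FPKM at 11 hpf and 1073, 638 and 697 at 24 hpf, the gap was wider still. The ATP synthase gene atp5c1 was the most abundant of the list that did not overlap, with 904, 325 and 411 FPKM at 11 hpf and 1854, 1028 and 1429 at 24 hpf (log2 difference 1.39, spread 0.88). Its lowest cell at 24 hpf lay close to 11_1, and with median-of-ratios factors the stages overlapped.

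The 12 mitochondrially encoded genes among the members were less clear. Of 9 above 0 in all 6 cells, mt-nd6 alone was higher without overlap, with 109, 119 and 92.1 FPKM at 11 hpf and 162, 307 and 164 at 24 hpf (log2 difference 0.98, spread 0.56). The median of the 9 was 0.70, below its spread of 0.82. Summed over the list, the nuclear genes of the chain stood to the mitochondrial genes in ratios of 2.302, 0.761 and 1.599 in the cells of 11 hpf against 2.13, 1.73 and 2.996 in those of 24 hpf, and these ranges overlapped.

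Mitochondrial ribosomal proteins translate the mitochondrial genes. Of 39 above 0 in all 6 cells, 12 were higher and 2 lower without overlap, and the median log2 difference was 0.74 (spread 0.44). Without 11_3 the median was 1.28 and 19 were higher, and without 24_1 15 were higher. The large subunit gene mrpl33 had 3.403, 5.42 and 83.5 FPKM at 11 hpf and 401, 313 and 404 at 24 hpf (log2 difference 3.56, spread 2.33), so that 11_1 and 11_2 were low and 11_3 was intermediate. The genes mrps26, with 23.96, 31.8 and 45.4 FPKM at 11 hpf and 104, 80.1 and 241 at 24 hpf, and mrpl34, with 183, 75.5 and 37.3 FPKM at 11 hpf and 315, 505 and 318 at 24 hpf, did not overlap either. The 2 lower genes, named after their values were seen, were mrps28 and mrpl54, with log2 differences of -1.24 and -1.38.

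Of 32 genes of mitochondrial import and carriers, 5 were higher and 0 lower without overlap, a share near that of all genes, and without 11_3 8 were higher and 4 lower. Among them pmpcb, a subunit of the peptidase that trims imported proteins, had 2.16, 29.5 and 9.599 FPKM at 11 hpf and 240.5, 111 and 112 at 24 hpf (log2 difference 3.4, spread 1.75). The import receptor gene tomm22 was the most abundant without overlap, with 349, 479 and 231 FPKM at 11 hpf and 821, 805 and 881 at 24 hpf (log2 difference 1.24, spread 0.53). Of 16 genes of the TCA cycle and fatty acid oxidation, 5 were higher and 0 lower (median 0.52, spread 0.49). They included acadm, the medium-chain acyl-CoA dehydrogenase, with 77.4, 10.8 and 52.9 FPKM at 11 hpf and 325, 259 and 188 at 24 hpf, and etfb, which passes electrons from such enzymes to the chain, with 49.4, 96.5 and 117 FPKM at 11 hpf and 280.1, 338 and 271 at 24 hpf. In each the lowest cell at 24 hpf exceeded the highest at 11 hpf by a wide margin. Glycolysis had 5 genes above 0 in all 6 cells. The aldolase gene aldoaa, with 269, 249 and 252 FPKM at 11 hpf and 412, 405 and 636 at 24 hpf, and pfkfb4b, with 46.5, 7.14 and 35.4 FPKM at 11 hpf and 90.9, 112 and 94.04 at 24 hpf, were higher, and the median of the 5 was 0.11 with a spread of 1.24.

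The proteasome was higher as a group. Of 35 genes above 0 in all 6 cells, 18 were higher without overlap and 0 were lower, with a median log2 difference of 1.34 (spread 0.41). With median-of-ratios factors 16 were higher, and without 24_1 or without 24_2 the count was 20. The share of the summed FPKM was 0.993%, 1.04% and 1.61% at 11 hpf against 2.48%, 2.35% and 2.32% at 24 hpf. Genes of the core particle were prominent, with psmb2 at 23.8, 23.6 and 57.2 FPKM at 11 hpf and 303, 178 and 156 at 24 hpf (log2 difference 2.57, spread 0.88) and psma1 at 63.7, 175 and 69.6 FPKM at 11 hpf and 645, 458 and 439 at 24 hpf (log2 difference 2.31, spread 0.86). For psmb6 the values were 24.5, 23.3 and 160.3 FPKM at 11 hpf and 253, 237 and 227 at 24 hpf, with 11_3 nearest to the cells at 24 hpf. The most abundant without overlap was psmb3, with 329, 534 and 433 FPKM at 11 hpf and 1068, 761 and 766 at 24 hpf (log2 difference 1.0, spread 0.45).

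Ubiquitin ligases and conjugating enzymes had 12 of 42 genes higher and 2 lower (median 0.47, spread 0.47), with 4 lower without 24_2 and 5 without 11_3. The gene rbx1, the RING subunit of cullin ligases, had 191, 117 and 169.6 FPKM at 11 hpf and 1031, 592 and 763 at 24 hpf (log2 difference 2.31, spread 0.54), and no cell at 11 hpf came near those at 24 hpf. The adaptor of such ligases, skp1, was the most abundant without overlap, with 579.97, 499 and 591 FPKM at 11 hpf and 947, 654 and 1110.3 at 24 hpf. With median-of-ratios factors its stages overlapped. The chaperonin CCT and prefoldin, which fold actin and tubulin, had 3 of 11 genes higher and 0 lower, with a median of 1.01 (spread 0.26) against 0.23 over all genes. Without 24_1 or without 24_2 5 were higher, and without 11_3 6 were higher and 1 was lower. Among these pfdn1 had 21.4, 31.6 and 35.3 FPKM at 11 hpf and 171, 238 and 81.2 at 24 hpf (log2 difference 2.43, spread 0.87), and cct2 had 1.21, 31.8 and 60.3 FPKM at 11 hpf and 106, 91.2 and 126 at 24 hpf, where the difference of 1.76 was below the spread of 2.56.

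Chaperones of the cytosol and the endoplasmic reticulum (ER) went in different directions. Of 35 genes 11 were higher and 3 lower, and the lower ones became 6 with median-of-ratios factors, 5 without 24_1, 6 without 24_2 and 7 without 11_3. The constitutive Hsp70 gene hspa8 was abundant and slightly higher, with 569.6, 489 and 666 FPKM at 11 hpf and 697, 784 and 908 at 24 hpf (log2 difference 0.47, spread 0.29). The ER Hsp70 gene hspa5 (BiP) was lower in every cell at 24 hpf, with 317, 278 and 321 FPKM at 11 hpf and 78.3, 38.8 and 45.2 at 24 hpf (log2 difference -2.47, spread 0.54). Among ER translocation genes, 5 of 31 were higher and 5 lower, and without 24_2 or without 11_3 these were 10 and 7. The channel genes sec61a1, with 200.02, 105 and 85.8 FPKM at 11 hpf and 44.7, 6.05 and 63.4 at 24 hpf, and sec61a1l, with 107, 68.5 and 44.4 FPKM at 11 hpf and 0.804, 13.005 and 37.03 at 24 hpf, were lower, as was sec62, with 29.2, 102 and 51.3 FPKM at 11 hpf and 16.2, 9.599 and 14.3 at 24 hpf. In sec61a1 and sec61a1l the spread, of 1.83 and 2.33, exceeded the size of the difference, and 24_3 lay close to the lowest cell at 11 hpf. The oligosaccharyltransferase gene ostc was higher, with 75.4, 159 and 88.03 FPKM at 11 hpf and 343, 608 and 300.2 at 24 hpf (log2 difference 1.95, spread 0.78).

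The low level of hspa5 led to a count over 17 members of the unfolded protein response, put together after the values were seen. Of 9 above 0 in all 6 cells, hspa5, xbp1 and manf were lower without overlap, canx was higher, and 5 overlapped. The shares over all genes above 0 in all 6 cells were 10.8% lower and 16.3% higher. The transcription factor gene xbp1 had 129.7, 122 and 86.8 FPKM at 11 hpf and 6.85, 32.1 and 10.96 at 24 hpf (log2 difference -2.69, spread 1.11), and manf, which encodes a secreted ER-resident factor, had 175, 176 and 117 FPKM at 11 hpf and 0.348, 30.3 and 62.2 at 24 hpf (log2 difference -2.3, spread 2.97). The stages of xbp1 were far apart. For canx, a lectin chaperone, the values were 30.2, 27.3 and 12.96 FPKM at 11 hpf and 66.3, 42.1 and 67.9 at 24 hpf. The median of the 9 genes was -0.29 (spread 0.31).

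Germline genes were mostly lower at 24 hpf. Of 25 members 14 were above 0 in all 6 cells, and of these 11 were lower without overlap, 1 was higher and 2 overlapped, with a median log2 difference of -1.26 (spread 0.50). These counts were the same with median-of-ratios factors, without 24_1, without 24_2 and without 11_3. The list took 8.67%, 7.21% and 4.39% of the summed FPKM at 11 hpf against 2.26%, 2.60% and 2.79% at 24 hpf, against 3.94% to 6.37% at 6 hpf. A large part of this share was nanos3 alone, whose values may include reads of the transgene. Among the germ plasm genes, ca15b, a carbonic anhydrase gene, had 7041, 6307 and 2661 FPKM at 11 hpf and 495, 2333 and 280.4 at 24 hpf (log2 difference -2.36, spread 1.76). Cell 24_2 held several times more than 24_1 and 24_3 and still less than 11_3. The RNA-binding protein gene dnd1, which PGCs need for migration and survival, had 6955, 5362 and 2115 FPKM at 11 hpf and 671, 1534 and 1678 at 24 hpf (log2 difference -1.89, spread 1.16), and 11_3 lay much nearer to the cells at 24 hpf than 11_1 and 11_2 did.

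The gene gra, a germ plasm transcript, had 2851, 1925 and 1376 FPKM at 11 hpf and 507, 792 and 401 at 24 hpf (log2 difference -1.85, spread 0.72). The Tudor gene tdrd7a, a component of germ granules, had 1319, 916 and 296 FPKM at 11 hpf and 241, 198 and 287 at 24 hpf (log2 difference -1.8, spread 1.15), and 11_3 was barely above 24_3. The translational regulator ybx1 had 450.3, 418 and 444 FPKM at 11 hpf and 189.99, 79.5 and 110.2 at 24 hpf (log2 difference -1.78, spread 0.63), with little variation at 11 hpf. For ddx4 (vasa), the RNA helicase used to mark germ cells, the values were 695, 739.8 and 383 FPKM at 11 hpf and 278, 245 and 157 at 24 hpf (log2 difference -1.42, spread 0.68). The translational repressor nanos3 was the most abundant gene of the list, with 24068, 20372 and 12389 FPKM at 11 hpf and 8559.8, 7573 and 10351 at 24 hpf (log2 difference -1.1, spread 0.55). Its stages did not overlap, but the transgene carries the nanos3 3ʹUTR, so these values may include its reads.

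The chemokine receptor gene cxcr4b, through which PGCs sense their path, had 1462, 1362 and 1570.5 FPKM at 11 hpf and 777, 787 and 677 at 24 hpf (log2 difference -0.97, spread 0.16), the smallest spread of the germline genes without overlap. The maternal linker histone gene h1m had 1398, 1671 and 1298 FPKM at 11 hpf and 1157, 561 and 674 at 24 hpf, and GTSF1, named for a factor of the Piwi pathway, had 818, 646 and 818 FPKM at 11 hpf and 278, 534 and 457 at 24 hpf. Their log2 differences were -0.87 and -0.85. For dazl, an RNA-binding protein gene, the values of 96.5, 105 and 109.7 FPKM at 11 hpf and 5.17, 45.9 and 93.3 at 24 hpf did not overlap, but the difference of -1.09 was smaller in size than the spread of 2.05. Cell 24_1 was far below the others, and 24_3 nearly reached the cells at 11 hpf. The gene psma8, a proteasome subunit that is germ-cell specific in mammals, was higher, with 91.7, 132 and 214 FPKM at 11 hpf and 439, 465 and 479 at 24 hpf (log2 difference 1.66, spread 0.61). It stood on the proteasome list as well.

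In 2 germline genes the stages overlapped, tdrd3 with a log2 difference of 0.05 and igf2bp3 with -1.60. Another 10 were listed at 0 in some cells. Of these asz1 had 159.6, 43.2 and 166 FPKM at 11 hpf and 12.97, 0 and 78.2 at 24 hpf, and buc, which organizes germ plasm, had 154, 80.99 and 0 FPKM at 11 hpf and 37.6, 0 and 21.6 at 24 hpf. The genes rgs14a, with 123, 103 and 43.01 FPKM at 11 hpf and 0, 21.8 and 0 at 24 hpf, and hook2, with 54.2, 30.9 and 0 FPKM at 11 hpf and 0, 5.05 and 0 at 24 hpf, were above 0 in 24_2 alone at 24 hpf. The Tudor genes tdrd6 and tdrd5, the Piwi gene piwil1, and celf1, zar1 and elavl2 had at least 1 cell at 0 at 24 hpf as well, but zeros were not limited to that stage. The genes buc and hook2 were at 0 in 11_3, celf1 and zar1 in 11_1, and tdrd5 in 11_2 and 11_3. For piwil1 the values were 0, 0 and 20.2 FPKM at 11 hpf and 30.2, 0 and 14.6 at 24 hpf, and for elavl2 0, 42.5 and 0 FPKM at 11 hpf and 55.1, 52.9 and 0 at 24 hpf. The means of piwil1, elavl2 and tdrd5 were higher at 24 hpf, with log2 differences of 1.04, 1.29 and 0.51 that were smaller than their spreads. Only henmt1, which methylates piRNA ends, was at 0 in each of 11_1 to 11_3, and it had 85.4, 23.2 and 149.8 FPKM at 24 hpf.

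**Figure D4:**
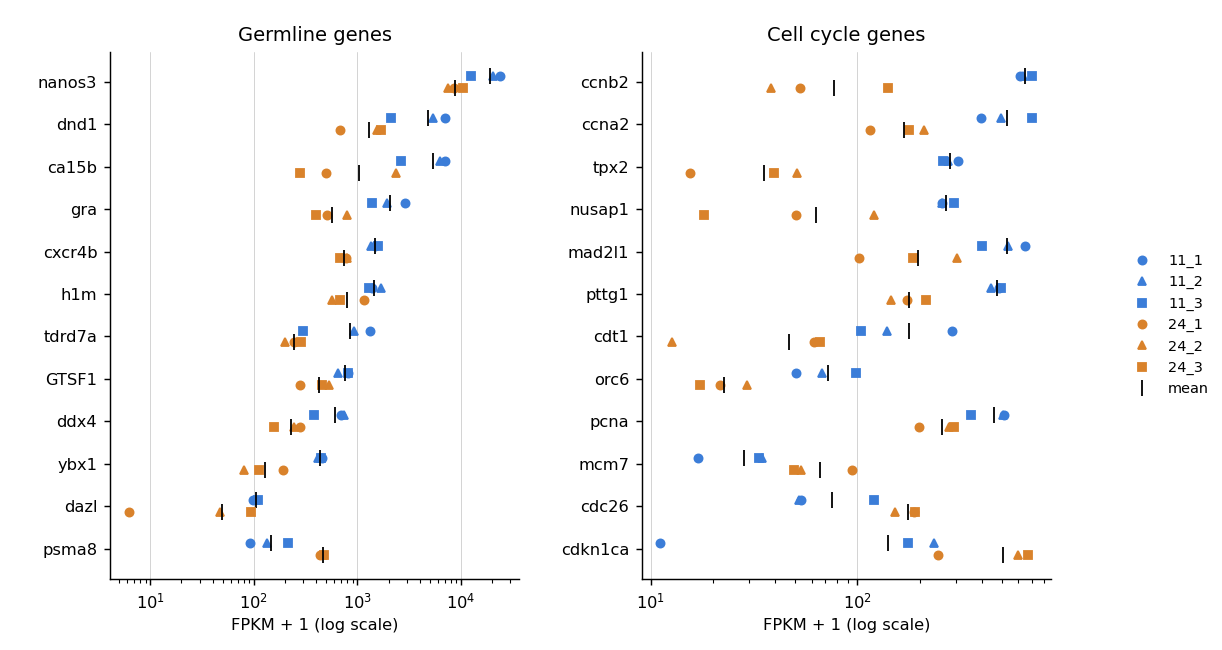
FPKM + 1 per cell (horizontal, log scale) for 12 germline genes (left) and 12 cell cycle genes (right), with cells at 11 hpf in blue, cells at 24 hpf in orange and a vertical bar at each stage mean. No gene shown has overlapping stages, and psma8, mcm7, cdc26 and cdkn1ca are the ones higher at 24 hpf.

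Genes of mitosis were more often lower than higher. Of 24 kinetochore and spindle genes above 0 in all 6 cells, 6 were lower and 1 higher without overlap (median -0.42, spread 0.21). Without 11_3 the counts were 8 lower and 4 higher. The list took 1.03% to 1.15% of the summed FPKM at 11 hpf and 0.548% to 0.583% at 24 hpf. The spindle assembly factor gene tpx2 had 306, 272 and 258 FPKM at 11 hpf and 14.5, 50.1 and 38.3 at 24 hpf (log2 difference -2.99, spread 0.91), and nusap1, a microtubule binder, had 257, 255 and 293 FPKM at 11 hpf and 49.3, 119 and 17.1 at 24 hpf (log2 difference -2.1, spread 1.37). In both, 24_2 was the highest cell of its stage and remained below every cell at 11 hpf. The checkpoint gene mad2l1 was the most abundant without overlap, with 645, 537 and 402 FPKM at 11 hpf and 101, 303 and 185 at 24 hpf (log2 difference -1.42, spread 0.86). Further genes, named after their values were seen, were pttg1 (securin), with a log2 difference of -1.41, and cdc26, a subunit of the anaphase-promoting complex, with 1.22.

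Cyclins and regulators of cyclin-dependent kinases had 5 of 18 genes lower and 1 higher (median -0.47, spread 0.30). The mitotic cyclin gene ccnb2 had 609, 635 and 702 FPKM at 11 hpf and 51.8, 37.1 and 139 at 24 hpf (log2 difference -3.08, spread 0.98), and ccna2 had 395, 493 and 699 FPKM at 11 hpf and 115, 209 and 177 at 24 hpf (log2 difference -1.66, spread 0.61). The stages were far apart in ccnb2, and 24_3 was the highest of the later cells. A cyclin linked to growth arrest, ccng2, was lower as well, with 87.7, 93.99 and 44.7 FPKM at 11 hpf and 20.9, 11.1 and 30.1 at 24 hpf. The inhibitor gene cdkn1ca had 10.1, 233 and 175 FPKM at 11 hpf and 245, 598 and 667 at 24 hpf, but its difference of 1.85 was below the spread of 2.55, 11_2 nearly reached 24_1, and with median-of-ratios factors the stages overlapped.

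DNA replication genes were mixed, with 5 of 20 lower and 3 higher (median -0.04, spread 0.47), and 5 of each without 24_2. The ribonucleotide reductase gene rrm2 stands in the table under 2 identifiers, ENSDARG00000020711 and ENSDARG00000078069, which may share reads, and both were lower, with log2 differences of -2.23 and -2.10. The origin licensing genes cdt1, with 287, 138 and 104 FPKM at 11 hpf and 60.7, 11.7 and 64.9 at 24 hpf, and orc6, with 49.1, 66.6 and 97.3 FPKM at 11 hpf and 20.7, 28.2 and 16.2 at 24 hpf, were lower, and so was pcna, the sliding clamp, with 514, 505 and 353 FPKM at 11 hpf and 198, 278 and 292 at 24 hpf (log2 difference -0.83, spread 0.43). The helicase gene mcm7, picked after its values were seen, was higher, with a log2 difference of 1.22, as were pole4 and rfc5 with 1.48 and 1.61.

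Of 78 spliceosome genes 13 were higher and 7 lower (median 0.14, spread 0.35), and with median-of-ratios factors 12 were higher and 15 lower. Without 24_2 the counts were 19 and 14, and without 11_3 21 and 12. Single genes went in different directions. The Sm gene snrpg had 41.9, 86.4 and 44.1 FPKM at 11 hpf and 353, 372 and 198 at 24 hpf (log2 difference 2.4, spread 0.76). The most abundant gene without overlap was snrpd2, with 446, 415 and 729.6 FPKM at 11 hpf and 1649.95, 1090.1 and 1522 at 24 hpf (log2 difference 1.42, spread 0.54). In contrast srsf7a, an SR splicing factor gene, had 157, 109.5 and 159 FPKM at 11 hpf and 26.3, 39.3 and 28.2 at 24 hpf (log2 difference -2.15, spread 0.43), and hnrnpd, which binds AU-rich RNA, had 59.1, 126 and 165 FPKM at 11 hpf and 28.2, 7.32 and 37.9 at 24 hpf. Counted after the values were seen, 7 of 13 Sm and LSm genes were higher and 0 lower (median 1.32, spread 0.62), and of 7 SR genes 0 were higher and 3 were lower (median -1.29, spread 0.52). The 7 were snrpd1, snrpd2, snrpe, snrpf, snrpg, lsm3 and lsm4, and the 3 were srsf5a, srsf7a and srsf11. The other 6 Sm and LSm genes and the other 4 SR genes overlapped. Both groups include genes whose direction had led to the count, and over all genes above 0 in all 6 cells 16.3% were higher and 10.8% lower. The most abundant Sm gene, snrpd3, overlapped, with 1355, 1455 and 1591 FPKM at 11 hpf and 1158, 1487 and 1058 at 24 hpf.

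The machinery of RNA polymerase II had 9 of 39 genes higher and 2 lower (median 0.30, spread 0.47), with 4 lower without 24_2. Its small subunit gene polr2k had 14.2, 63.3 and 81.5 FPKM at 11 hpf and 164, 173 and 326 at 24 hpf, and taf5, a subunit of TFIID, had 10.9, 0.551 and 10.9 FPKM at 11 hpf and 40.3, 45.8 and 56.6 at 24 hpf (log2 difference 2.52, spread 1.72). Against these, nelfa, a subunit of the pausing factor NELF, was lower, with 15.9, 20.1 and 45.5 FPKM at 11 hpf and 0.716, 11.04 and 1.28 at 24 hpf (log2 difference -2.4, spread 1.7). Nuclear transport had 1 of 19 genes higher and 2 lower (median 0.08, spread 0.25), shares no larger than those of all genes. The lower ones were rcc1, the exchange factor of Ran, with 593, 469 and 782 FPKM at 11 hpf and 58.5, 31.2 and 182 at 24 hpf (log2 difference -2.75, spread 1.32), and the nucleoporin gene seh1l, with 96.4, 59.5 and 43.3 FPKM at 11 hpf and 20.9, 18.1 and 7.67 at 24 hpf. The higher one was nutf2l, with 289.8, 237 and 304 FPKM at 11 hpf and 636, 465 and 468 at 24 hpf. In mRNA decay 1 of 18 genes was higher and 1 lower. The higher one, cnot3b, a subunit of the CCR4-NOT complex, had 21.9, 44.6 and 40.8 FPKM at 11 hpf and 47.4, 60.4 and 47.1 at 24 hpf (log2 difference 0.52, spread 0.58), and its stages overlapped with median-of-ratios factors. The lower one, cnot6a, a deadenylase of the same complex, had 74.3, 64.6 and 70.5 FPKM at 11 hpf and 19.7, 38.3 and 2.45 at 24 hpf, with a difference of -1.74 under a spread of 1.82.

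Chromatin modifiers had 10 of 56 genes lower and 5 higher (median -0.01, spread 0.56). Without 24_1 there were 11 lower and 11 higher genes, and without 24_2 10 and 8. The heterochromatin protein 1 gene cbx5 had 262, 173 and 274 FPKM at 11 hpf and 20.3, 28.1 and 28.003 at 24 hpf (log2 difference -3.16, spread 0.45), and its relative cbx3a had 541, 760.4 and 1023 FPKM at 11 hpf and 103, 43.1 and 402 at 24 hpf (log2 difference -2.08, spread 1.67). All cells at 24 hpf were far below those at 11 hpf in cbx5, whereas 24_3 kept a higher level of cbx3a. The bromodomain gene brd1b, with 55.3, 117 and 25.6 FPKM at 11 hpf and 9.06, 4.59 and 18.7 at 24 hpf, and phf3, with 115, 66.8 and 23.9 FPKM at 11 hpf and 5.93, 8.18 and 21.04 at 24 hpf, were lower as well. Higher was brd9, a subunit of a BAF chromatin remodelling complex, with 2.44, 7.23 and 4.47 FPKM at 11 hpf and 10.9, 45.8 and 19.2 at 24 hpf (log2 difference 2.2, spread 1.18).

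Histones and chromatin-bound proteins had 16 of 52 genes lower and 7 higher (median -0.46, spread 0.38). Identifiers were counted 1 by 1, and 6 of the lower ones share the symbol HIST1H2AL, whose copies are nearly identical. The macroH2A gene h2afy2 had 0.179, 3.31 and 34.5 FPKM at 11 hpf and 223, 103 and 153 at 24 hpf (log2 difference 3.56, spread 2.54), and it was listed at 0 in all 3 cells at 6 hpf. The core histone gene hist1h2ba had 156, 206 and 132 FPKM at 11 hpf and 0.317, 48.6 and 0.197 at 24 hpf, with 24_2 well above the other cells at 24 hpf. The nucleosome-binding genes hmgn6 and hmgn7, named after their values were seen, were higher, with log2 differences of 2.11 and 2.32, and the H3.3 genes diverged, with h3f3b.1 at -1.81 and h3f3c at 2.52. In h3f3c 11_1 was far below 11_2 and 11_3.

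Several of the largest differences belonged to symbols shared by many gene identifiers. HIST1H2AL stands for 23 members, whose FPKM summed to 3132, 3376 and 1638 at 11 hpf and to 505, 668 and 950.1 at 24 hpf, with 21 of the 23 stage means lower at 24 hpf. The 19 members named zgc:163040 summed to 2971, 2963 and 1473 against 201, 806 and 947, and the 8 named zgc:112234 to 870.1, 755 and 488 against 187, 251 and 144. These sums did not overlap, nor did those of the 9 members named zgc:173552, at 761, 651 and 495 against 256, 226 and 455. The 6 members named HIST2H2AB did overlap, with sums of 688, 637 and 285 against 640, 584 and 507. Copies of such genes are nearly identical, so the value of a single identifier is uncertain, while the sum depends less on how reads were split. The largest single difference of all genes above 0 in all 6 cells, in zgc:112234 (ENSDARG00000105468), with 214, 23.2 and 38.6 FPKM at 11 hpf and 0.913, 0.131 and 0.115 at 24 hpf, was of this kind. U1, the small nuclear RNA, is the symbol of 60 members, which summed to 4319, 2118 and 561 against 162, 657 and 518, and these sums overlapped. U1 and replication-dependent histone RNAs lack poly(A) tails, and how the amplification treats them was not tested.

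Some genes with paired symbols differed in direction. Symbols that differ only in a final a or b were paired, and 76 such pairs had both genes above 0 in all 6 cells. The letters often mark duplicates of the teleost lineage, but some pairs, such as polr1a and polr1b, are different subunits. In 10 pairs both genes were without overlap. In 4 of them both were higher, in 0 both were lower, and in 6 the directions were opposite. Of all 2305 genes above 0 in all 6 cells, 16.3% were higher and 10.8% lower without overlap. Whether the pairs differ from pairs of unrelated genes was not tested. The pairs with both higher were gpx4a and gpx4b, lsm12a and lsm12b, ndufab1a and ndufab1b, and psmd4a and psmd4b. The opposite pairs, named because of their values, were cbx1a and cbx1b, chd4a and chd4b, ckba and ckbb, eif4a1a and eif4a1b, hmgb1a and hmgb1b, and oaz1a and oaz1b.

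In hmgb1a, which encodes a DNA-bending protein of chromatin, the values were 158, 156 and 47.2 FPKM at 11 hpf and 46.1, 20.3 and 7.24 at 24 hpf, and in hmgb1b they were 156, 119.8 and 129 FPKM at 11 hpf and 243, 229 and 371 at 24 hpf. Their log2 differences were -2.25 and 1.05. The antizyme gene oaz1a, which curbs polyamine synthesis, had 588, 556 and 621 FPKM at 11 hpf and 223, 286 and 271 at 24 hpf (log2 difference -1.18, spread 0.2), whereas oaz1b had 62.7, 113 and 29.01 FPKM at 11 hpf and 247, 145 and 179.6 at 24 hpf (log2 difference 1.47, spread 1.04). In oaz1a the 3 cells of each stage lay close together. The helicase gene of the NuRD complex chd4b had 44.1, 37.2 and 30.8 FPKM at 11 hpf and 7.06, 28.3 and 8.304 at 24 hpf, and chd4a had 12.3, 9.58 and 5.702 FPKM at 11 hpf and 21.4, 23.9 and 14.3 at 24 hpf. For eif4a1a, an initiation factor, the values were 235, 176 and 273 FPKM at 11 hpf and 92.7, 56.2 and 123 at 24 hpf, and for eif4a1b 53.5, 38.4 and 44.4 FPKM at 11 hpf and 204, 60.1 and 83.4 at 24 hpf. With median-of-ratios factors the stages overlapped in chd4a and in eif4a1b. In 5 of the 6 pairs the stage means of the members lay nearer to each other at 24 hpf or had the opposite order, while those of hmgb1a and hmgb1b lay further apart. As the pairs were chosen for opposite directions, this is set wherever the falling gene began higher. Reads shared by close paralogs could be counted for either.

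**Figure D5:**
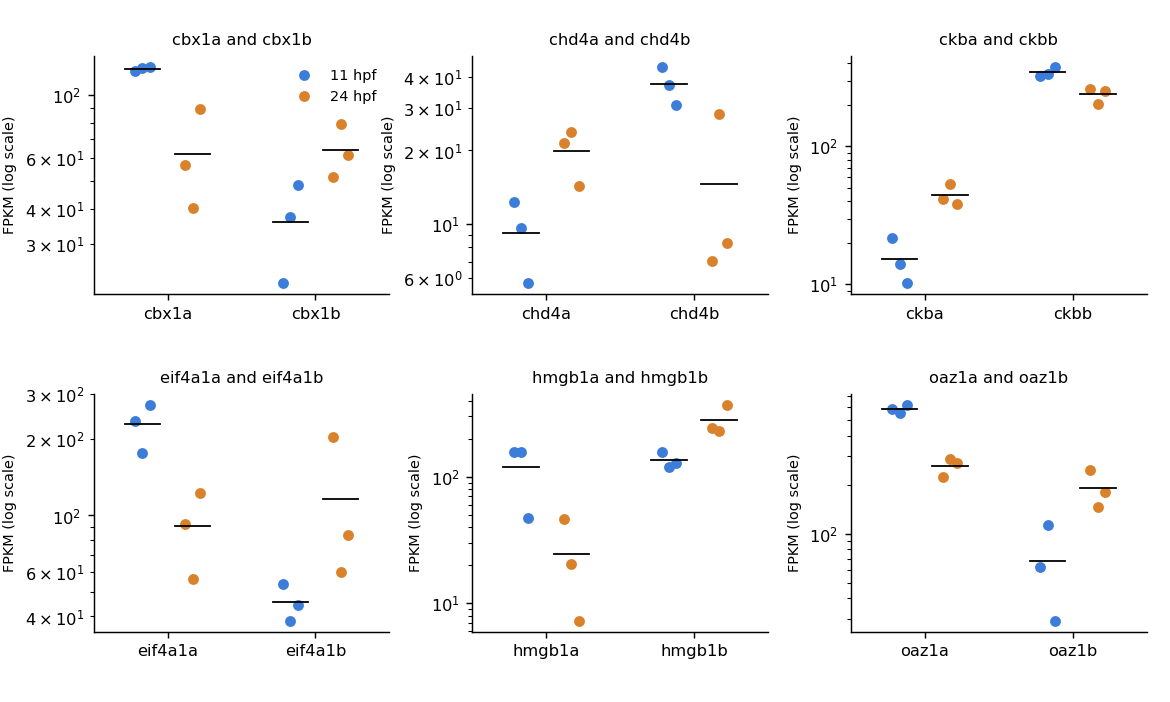
FPKM per cell (vertical, log scale) of the 6 paralog pairs whose members were without overlap in opposite directions, with cells at 11 hpf in blue, cells at 24 hpf in orange and a line at each stage mean. The means of cbx1a and cbx1b, of chd4a and chd4b and of eif4a1a and eif4a1b had the opposite order at 24 hpf, and ckbb stayed above ckba at both stages. With median-of-ratios factors chd4a and eif4a1b overlapped.

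Transcription factors of the zinc finger, homeobox and related families had 6 of 29 genes lower and 0 higher (median -0.64, spread 0.73). Without 11_3 the counts were 8 lower and 3 higher, and without 24_1 they were 8 and 2. The list took 1.02% to 1.23% of the summed FPKM at 11 hpf and 0.398% to 0.687% at 24 hpf. The gene foxh1, which mediates Nodal signalling, had 122, 131 and 165 FPKM at 11 hpf and 20.5, 30.2 and 25.1 at 24 hpf (log2 difference -2.42, spread 0.35). All 3 cells at 24 hpf were far below those at 11 hpf, and the cells of a stage lay close together. The genes znf131, with 36.2, 73.9 and 36.1 FPKM at 11 hpf and 2.36, 3.68 and 6.99 at 24 hpf, and sox11b, with 182, 137 and 51.4 FPKM at 11 hpf and 11.2, 44.6 and 33.3 at 24 hpf, were lower as well.

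Of 29 actin genes 7 were higher and 2 lower (median 0.48, spread 0.12), and with median-of-ratios factors 3 were higher. The Arp2/3 subunit gene arpc3, which belongs to the complex that branches actin filaments, had 174, 124 and 39.7 FPKM at 11 hpf and 842, 429 and 387 at 24 hpf (log2 difference 2.29, spread 1.26). Counted after the values were seen, 4 of 6 genes of that complex were higher and 0 lower, beside 16.3% and 10.8% over all genes. Of these arpc5lb and arpc4l overlapped with median-of-ratios factors. The membrane-bound actin regulator marcksb was lower, with 499, 381 and 331 FPKM at 11 hpf and 116, 154 and 127 at 24 hpf (log2 difference -1.6, spread 0.37). Named after its values were seen, rac1a, a GTPase of protrusions, was lower as well, with a log2 difference of -0.93. The related GTPase gene rhoaa was higher, with 2.38, 41.6 and 14.2 FPKM at 11 hpf and 152, 103 and 53.3 at 24 hpf, and the cytoplasmic actin gene actb2 had 476, 316 and 491 FPKM at 11 hpf and 923, 813 and 573 at 24 hpf (log2 difference 0.85, spread 0.5). Both rhoaa and actb2 overlapped with median-of-ratios factors. The other cytoplasmic actin gene, actb1, overlapped already, with 699, 530.1 and 880.1 FPKM at 11 hpf and 1294, 752 and 1023 at 24 hpf (log2 difference 0.54, spread 0.54). Among tubulins tubb2b was abundant and higher, with 1038, 963 and 977 FPKM at 11 hpf and 1822, 1632 and 1313 at 24 hpf (log2 difference 0.68, spread 0.25), and the tubulin-binding stathmin gene stmn1a was lower, with 1356, 1445 and 1815 FPKM at 11 hpf and 1347, 875 and 1063 at 24 hpf.

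Adhesion genes had 8 members above 0 in all 6 cells, of which epcam alone was without overlap. It had 261, 122 and 175 FPKM at 11 hpf and 71.5, 60.6 and 104 at 24 hpf (log2 difference -1.23, spread 0.67) and encodes an epithelial adhesion molecule. Of 16 genes of oxidative stress and iron, 6 were higher and 2 lower (median 0.71, spread 0.79). The phospholipid peroxidase genes gpx4b, with 339.7, 183 and 374 FPKM at 11 hpf and 1274, 663 and 921 at 24 hpf, and gpx4a, with 34.2, 51.5 and 48.8 FPKM at 11 hpf and 115, 110.1 and 197 at 24 hpf, were higher, while cat (catalase), with 195, 44.5 and 43.01 FPKM at 11 hpf and 20.8, 0.239 and 39.8 at 24 hpf, was lower with a difference of -2.16 under a spread of 2.96. The vacuolar ATPase list had 1 gene above 0 in all 6 cells, which overlapped.

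Genes outside the lists also had large differences. The largest difference toward 24 hpf among genes above 0 in all 6 cells was that of zgc:158463, with 0.575, 3.49 and 5.12 FPKM at 11 hpf and 99.6, 81.1 and 42.8 at 24 hpf (log2 difference 4.22, spread 1.2). Next came fjx1, related to the four-jointed kinase of Drosophila, with 0.212, 7.54 and 14.4 FPKM at 11 hpf and 120.1, 59.5 and 182 at 24 hpf (log2 difference 3.86, spread 2.08). The hydrolase gene cmbl had 3.96, 2.05 and 6.16 FPKM at 11 hpf and 13.4, 63.2 and 90.3 at 24 hpf, and ppp2r1ba, a scaffold of protein phosphatase 2A, had 3.05, 3.52 and 11.2 FPKM at 11 hpf and 91.2, 18.9 and 80.4 at 24 hpf. In both the lowest cell at 24 hpf, 24_1 and 24_2 respectively, lay near the highest at 11 hpf. On the lower side, ndel1b, a regulator of the motor dynein, had 122, 94.9 and 21.9 FPKM at 11 hpf and 1.499, 5.83 and 2.12 at 24 hpf (log2 difference -4.28, spread 1.52), and cnp, a phosphodiesterase gene, had 59.1, 60.4 and 69.01 FPKM at 11 hpf and 3.11, 0.091 and 11.02 at 24 hpf (log2 difference -3.47, spread 1.74). The makorin gene mkrn4 had 55.6, 86.7 and 148 FPKM at 11 hpf and 3.197, 1.67 and 19.4 at 24 hpf (log2 difference -3.42, spread 1.69), and zgc:158852 had 588, 452 and 328 FPKM at 11 hpf and 40.6, 53.2 and 34.5 at 24 hpf with the small spread of 0.52. FQ312024.1, zgc:165555, si:ch211-241j12.3, zgc:194989 and CU459186.1 were further genes with large differences on this side, given no role here, with log2 differences between -5.54 and -3.41.

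Genes at 0 throughout a stage were set apart. At 11 hpf 135 members were listed at 0 in all 3 cells, and at 24 hpf 258 were. These genes had to differ to be members, and a transcript that escaped capture is also listed at 0, so no fold is given. Among the former, trappc1, a subunit of the TRAPP tethering complex, had 243, 135 and 313 FPKM at 24 hpf, and 34.3, 37.4 and 34.1 at 6 hpf. The vacuolar ATPase gene atpv0e2 had 284, 170.2 and 123 FPKM, qdprb1, a dihydropteridine reductase gene, 121, 268 and 122, and si:dkeyp-55f12.3 132, 154 and 121. Of these qdprb1 was at 0 in the cells at 6 hpf as well.

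Among the genes listed at 0 at 24 hpf, fam212aa had 703, 301 and 208 FPKM at 11 hpf and nnr had 219.6, 178 and 299. The gene lamtor4, of the Ragulator complex that anchors mTORC1 to lysosomes, had 146, 107 and 302, CU207221.1 had 112, 113 and 133, and prc1a, which bundles microtubules at the spindle midzone, had 135, 97.8 and 110.4. All 5 were above 0 in every cell at 6 hpf. A further 4249 members, or 61.2%, were listed at 0 in 1 or more cells without filling either of these classes. For these the presence in a cell varied within a stage.

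At the other end, dohh, the enzyme that completes hypusine in eIF5A, had 175, 239 and 183 FPKM at 11 hpf and 246, 207 and 248 at 24 hpf, and mak16, a nucleolar gene of large subunit assembly, had 217, 208 and 194 FPKM at 11 hpf and 199, 247 and 176 at 24 hpf. Among the 500 most abundant members these 2 varied least over the 6 cells relative to their means. Their log2 differences were 0.23 and 0.01.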

How the data were processed

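RNA of single PGCs was amplified by a modified Smart-seq2 protocol and sequenced, with 3 cells from 1 embryo at each of 6, 11 and 24 hpf. Per the labels and the study's methods, trimmed reads were mapped to danRer10 by HISAT2 (2.0.5), and Ensembl genes were quantified by StringTie (1.3.3). The table deposited by the authors gives FPKM for each annotated gene, unfiltered, without read counts or coordinates, so no counting error can be given. All columns were mapped to cells.

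Calculations were made in Python (3.11.15) with numpy (2.4.6) and pandas (2.3.3), and plots with matplotlib (3.10.9). Genes that reached 1 FPKM in 3 or more of 6 cells were kept, and a pseudocount of 1 was added. The members and lists were chosen with earlier results of these data known. Genes were named by rule: among those above 0 in all 6 cells and without overlap, the 12 largest differences in each direction, 4 per list and the most abundant of each list. To these came all germline genes, actb1, the 5 genes per direction with the highest minimum among those at 0 in 1 stage, and the 2 least variable of the 500 most abundant. Genes outside the rule are marked as such, or belong to a group or pair marked so. Count-based tests were not made, as they need read counts. The calculation was tested on simulated data with the same SD for every gene and no zeros. Real cells differ in both, so this checks the code only. Alternatives were other pseudocounts, filters and scalings, the mean of log values, and leaving out each cell. Of the gene symbols, 22 had been turned into dates in the deposited table, 9 of them among the members. No promoter or protein sequences were used.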

Additional observations from a re-analysis of the deposited data

How the results depend on the processing

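No paired analysis was possible because no test was made, the stages are different embryos, and the repeat numbers only name cells. Without a filter 4719 genes were at least 2-fold higher and 4176 lower, and with an FPKM of at least 1 in all 6 cells 478 and 260, as fewer or more genes enter. With median-of-ratios factors the median over genes above 0 in all 6 cells was 0.032 in place of 0.23. Leaving out each cell in turn, with the genes chosen anew, gave 494 to 604 genes higher and 336 to 431 lower without overlap, since 5 cells overlap less often than 6. The counts of at least 2-fold were then 1386 to 1735 higher and 1376 to 1963 lower. The median over all members was -0.17 to 0.14, and over the genes above 0 in all cells 0.10 to 0.31. For lists the genes were kept fixed, and the median of mitochondrial ribosomal proteins was 0.68 to 1.28, of cytosolic ribosomal proteins 1.37 to 1.84, of the respiratory chain 1.08 to 1.59, of the proteasome 0.95 to 1.45 and of germline genes -1.44 to -1.06. Of 142 named genes without overlap, 133 remained so in the same direction with median-of-ratios factors. The sign of the median over all members differed from the main value in 6 of 14 settings. The promoter motifs listed in the plan were not run.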
